A study of Homo sapiens with 4 samples.

Results

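E2 ubiquitin conjugating enzymes carry activated ubiquitin, or a ubiquitin-like protein, on a catalytic cysteine. They receive it from an E1 activating enzyme and, with an E3 ligase, pass it to a substrate protein. The choice of E2 helps to set which kind of ubiquitin chain is built, and so whether the substrate is degraded, relocated or used as a signal. Most E2 enzymes are little more than a single compact catalytic domain. UBE2O is the exception in size, a very large protein that combines E2 and E3 activity and acts in the quality control of unassembled proteins.

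The mRNAs of this family were examined in RNA recovered with the fragile X protein FMRP, an RNA-binding protein that regulates the translation of its target mRNAs. All probe sets whose only gene symbol in the platform annotation begins with UBE2 and a further letter were taken, which gave 81 of 54613 probe sets without array controls, from 32 of 19775 genes. Of these genes 26 are protein coding and 6 are pseudogenes or noncoding RNAs. The cells were Flp-In T-REx HEK293, a human embryonic kidney line with a stably integrated transgene for FMRP carrying a Flag and an HA tag. Doxycycline at 1 µg/ml for 16 h switched the transgene on in every sample. Immunoprecipitate (IP) samples held RNA bound to anti-FLAG M2 beads after washes in raised salt, and lysate samples held total RNA set aside before the IP, with 2 samples in each group and 1 Affymetrix array per sample. The design asks which mRNAs are over- or under-represented with FMRP relative to the lysate they came from. The tagged protein was expressed from a transgene, and no mock IP is among the samples analysed here, so carry-over of RNA that does not depend on FMRP has no measured level. Nothing in the labels states that the 2 arrays of a group come from different cultures; p-values then reflect only the spread between these samples, which may be technical.

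The values are log2 probe set signals. Across 13157 genes, each read from its brightest probe set over the 4 arrays, Pearson's r was 0.992 between the IP arrays, 0.993 between the lysate arrays and 0.873 to 0.903 between an IP and a lysate array. Genes are not independent replicates, and 2 arrays a group limit the precision. Filament and keratin genes reported in HEK293 cells were bright in the lysates, with VIM at 12.80 and 12.84, NEFL at 11.67 and 11.77 and KRT18 at 10.43 and 10.66, whereas NEFM stood at 3.73 on both lysate arrays. The leukocyte gene PTPRC stood at 2.78 and 2.52 and the hepatocyte gene ALB at 2.58 and 2.66 in the lysates. Other genes of unrelated cell types were less low there, with INS at 3.71 and 3.70, CD3E at 4.54 and 4.63 and GFAP at 4.84 and 4.39. PECAM1 stood at 5.27 and 5.02 and HBB at 5.71 and 5.42, above the array medians of 4.67 to 4.71. PAX2, also reported in HEK293 cells, stood at 6.23 and 6.32 in the lysates. GFAP and PECAM1 were called higher in the IP (limma adjusted p = 0.0195 and 0.0175). So were KRT18 and KRT8 (limma adjusted p = 0.0168 and 0.0252), while VIM, NEFL, PAX2 and HBB did not pass. FMR1 itself, which encodes the precipitated protein, was read from a probe set of a class that can cross-hybridize. It stood at 9.28 and 9.03 in the IP against 9.64 and 9.51 in the lysate. The change was -0.42 and was called lower (limma adjusted p = 0.0261).

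Most E2 mRNAs were under-represented in the FMRP IP. Of the 25 protein-coding UBE2 genes that passed the filter on low signal, 15 were lower in the IP, 2 were higher and 8 did not pass the test (limma over all 13157 genes, Benjamini-Hochberg adjusted p of at most 0.05). Over all genes tested, 28.8% were lower and 35.0% were higher. The median change of the UBE2 genes, IP minus lysate, was -0.72 on the log2 scale, beside a median of 0.08 over all genes. A fall of at least 2-fold was called for 11 of the 25, beside 12.8% of all genes tested. Both IP arrays lay below both lysate arrays for 19 of the 25 genes and above them for 4, against 37.2% and 45.1% of all genes. The members and the lists below were chosen with results of these data known, and the counts describe them without testing the family as a set.

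**Figure D1:**
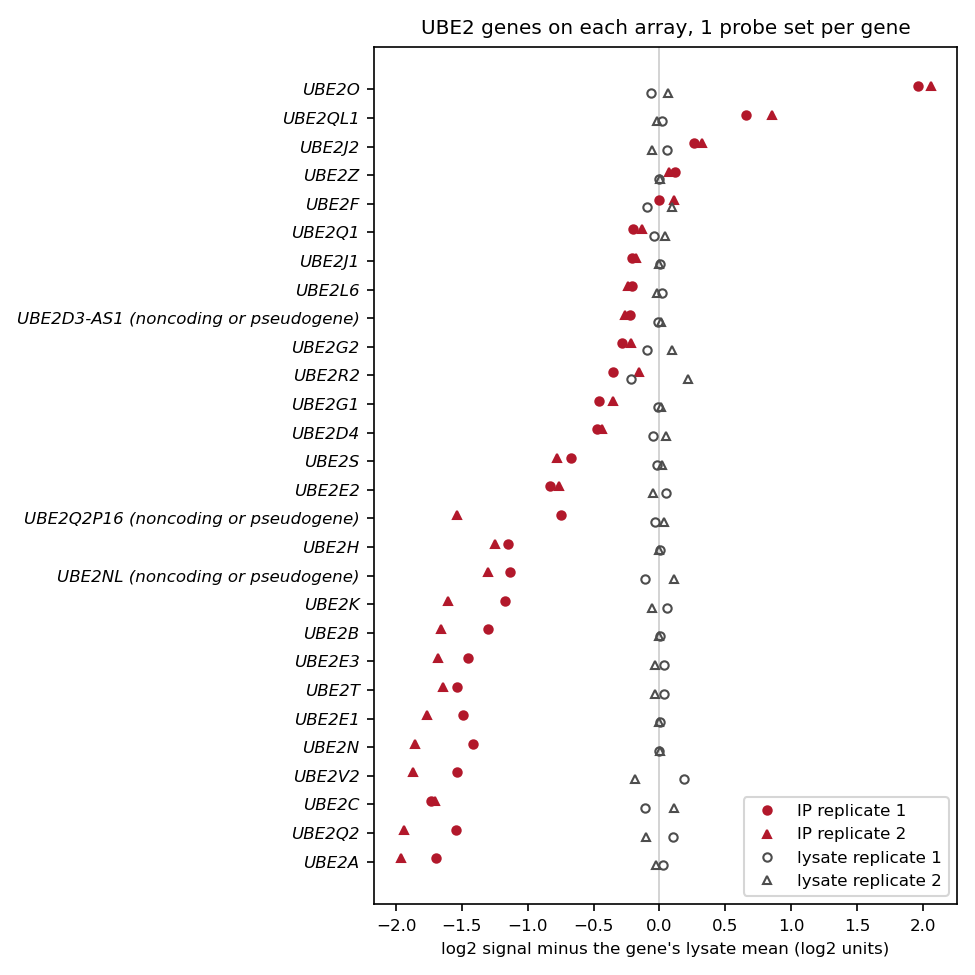
Signal of each UBE2 gene on each array, as the log2 signal minus that gene's mean over the lysate arrays, for the 28 genes that passed the filter. Red filled markers are the 2 IP arrays and grey open markers the 2 lysate arrays; UBE2O lies about 2 log2 units to the right, and UBE2A, UBE2Q2, UBE2C, UBE2V2, UBE2N and UBE2E1 lie farthest to the left.

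UBE2O was the E2 gene with the largest rise. Its signal was 10.18 and 10.27 on the IP arrays against 8.15 and 8.27 on the lysate arrays. Both IP values stood well above both lysate values, and the gap between the groups far exceeded the spread within either one. The change was 2.01 (95% interval 1.73 to 2.29), a 4.03-fold rise (limma adjusted p = 3.4e-05, n = 2 each), which ranked 95 from the highest among the 13157 genes. The second UBE2O probe set gave a smaller difference, at 6.15 and 6.29 in the IP against 5.88 and 6.06 in the lysate, a change of 0.25 that did not pass over probe sets (adjusted p = 0.136). The rise of UBE2O therefore rests on 1 of its 2 probe sets, and the mean of both gave 1.13.

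The only other E2 gene that rose was UBE2QL1, whose product resembles the catalytic part of the UBE2Q proteins. It stood at 9.60 and 9.80 in the IP against 8.96 and 8.93 in the lysate, a 1.69-fold rise (limma adjusted p = 0.00104). Its second probe set also passed, with 7.60 and 7.85 in the IP against 7.17 and 7.18 in the lysate, a change of 0.55 (adjusted p = 0.0109). The groups did not overlap on either probe set. The call of the second probe set was lost without IP replicate 2, where its change was 0.42 (adjusted p = 0.0533). The call of UBE2QL1 was lost when the arrays were centred on their hybridization controls, where its change was 0.26 (adjusted p = 0.332).

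UBE2A and UBE2B encode the 2 human homologs of yeast RAD6, which act with RAD18 at stalled replication forks and with RNF20 and RNF40 on histone H2B. UBE2A had the largest fall among the protein-coding members. Its signal was 8.42 and 8.16 in the IP against 10.15 and 10.10 in the lysate, so that the change was -1.83 (limma adjusted p = 3.7e-05, 95% interval -2.14 to -1.52). Its other probe set changed by -2.61, with 7.91 and 7.60 in the IP against 10.25 and 10.49 in the lysate. No IP value reached a lysate value on either probe set. UBE2B stood at 8.57 and 8.22 in the IP against 9.88 on both lysate arrays, a change of -1.48 (adjusted p = 8.9e-05). Of its 5 kept probe sets 4 were lower, by 1.18 to 2.10 on the log2 scale, and the remaining one changed by 0.08 near the low end of the arrays (adjusted p = 0.727 over probe sets). UBE2T, the E2 of the Fanconi anemia pathway that works with FANCL, was 3.01-fold lower, at 9.03 and 8.92 in the IP against 10.60 and 10.53 in the lysate (limma adjusted p = 3.7e-05).

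UBE2C and UBE2S serve the anaphase promoting complex, the ligase that drives exit from mitosis: UBE2C starts chains on substrates and UBE2S extends them. UBE2C fell, with 9.42 and 9.45 in the IP against 11.05 and 11.26 in the lysate, which is 3.29-fold lower (95% interval of the log2 change -2.01 to -1.43, limma adjusted p = 3.7e-05). UBE2S fell less, with 11.84 and 11.74 in the IP against 12.49 and 12.53 in the lysate, a change of -0.72 (adjusted p = 9.5e-04). The difference between their changes was -0.99. It had the same sign for every choice of IP and lysate array, but 2 arrays against 2 cannot give a two-sided exact permutation p below 0.333, which is what this comparison gave.

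UBE2N forms, with the catalytically inactive variant UBE2V2, a heterodimer that builds ubiquitin chains used in signalling rather than for degradation. Both partners were lower in the IP. UBE2N stood at 10.18 and 9.74 in the IP against 11.59 and 11.60 in the lysate, or -1.64 in log2 units (95% interval -2.01 to -1.26, limma adjusted p = 8.9e-05). On its remaining probe sets the change was -2.54 and -1.99, both called lower over probe sets. UBE2V2 stood at 8.31 and 7.98 in the IP against 10.03 and 9.67 in the lysate, or -1.70 in log2 units (95% interval -2.10 to -1.30, adjusted p = 9.9e-05), with its other probe sets at -2.31 and -1.21. All 6 probe sets of this heterodimer, repeated readings of its partner genes, had both IP arrays below both lysate arrays. The same held for 10216 of all 27281 probe sets tested. The UBE2N probe set is of a class that can cross-hybridize, as is that of UBE2NL, a transcribed pseudogene resembling UBE2N, which was 2.32-fold lower (adjusted p = 1.5e-04) and whose signal may not be separate from that of UBE2N. The variant UBE2V1 shares its probe sets with other symbols in the annotation and was not analysed here. Across the family, 4 probe sets named a UBE2 gene among several symbols.

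UBE2E1, UBE2E2 and UBE2E3 encode closely related E2 enzymes with an added segment at the amino terminus. All 3 were lower. UBE2E1 stood at 10.59 and 10.31 in the IP against 12.08 and 12.07 in the lysate, or -1.63 in log2 units (95% interval -1.94 to -1.32, limma adjusted p = 4.9e-05). UBE2E3 changed almost equally, by -1.57, with 9.61 and 9.38 in the IP against 11.10 and 11.03 in the lysate. UBE2E2 fell less, with 8.90 and 8.98 in the IP against 9.78 and 9.69 in the lysate, a change of -0.80 (adjusted p = 6.0e-04). The change of UBE2E1 minus that of UBE2E2 was -0.83, and the change of UBE2E2 minus that of UBE2E3 was 0.77 (exact permutation p = 0.333 for each, the smallest possible). UBE2D4, a member of the UBE2D family of general-purpose E2 enzymes, changed by -0.45 (limma adjusted p = 0.00974), and 4 of its 5 probe sets were lower over probe sets, with changes from -0.91 to -0.32 over all 5. Of these 4, the one at -0.33 (adjusted p = 0.0462) lost its call when any 1 array was left out, with changes of -0.37 to -0.29, and another, at -0.45, lost it without lysate replicate 2. Without lysate replicate 2 the UBE2D4 change was -0.40 and did not pass.

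**Figure D2:**
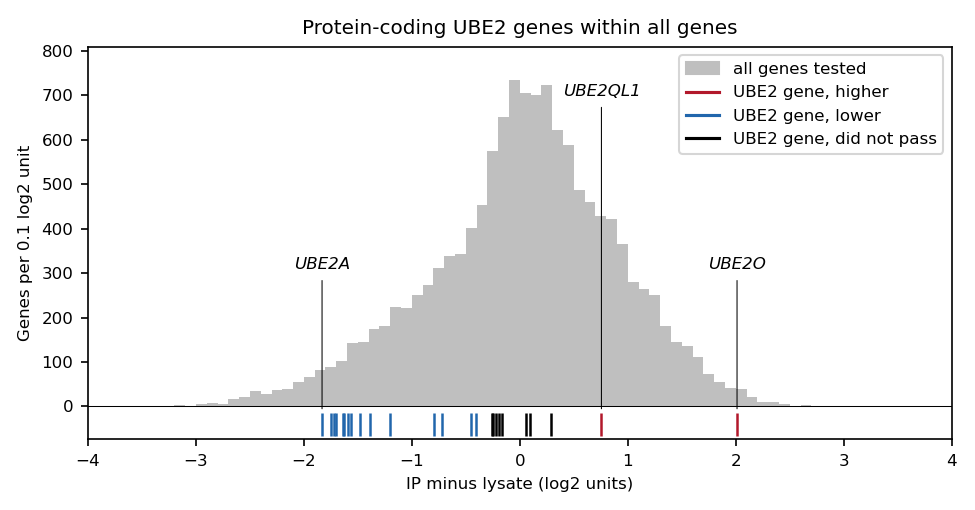
Distribution of the change, IP minus lysate in log2 units, over all 13157 genes tested (grey bars, genes per 0.1 log2 unit), with the 25 protein-coding UBE2 genes as ticks under the axis. The 15 genes called lower (blue) lie between -1.83 and -0.41, the 8 that did not pass (black) between -0.25 and 0.29, and the 2 called higher (red) are UBE2QL1 and UBE2O.

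Several E2 enzymes build the chains that mark proteins for the proteasome, some of them at the endoplasmic reticulum. UBE2K, which carries a ubiquitin-binding domain beside its catalytic domain, was 2.62-fold lower, at 8.51 and 8.08 in the IP against 9.74 and 9.63 in the lysate (limma adjusted p = 1.9e-04). Its remaining probe sets fell further, at -2.24 and -2.19. UBE2G1, which extends chains with cullin ligases, changed by -0.41 (adjusted p = 0.0157) and did not pass without IP replicate 1, lysate replicate 1 or lysate replicate 2, with changes of -0.35, -0.42 and -0.40. Changes of -1.06 and -0.79 were measured on its remaining probe sets. UBE2R2, a close relative of the cullin partner CDC34, stood at 10.12 and 10.31 in the IP against 10.25 and 10.69 in the lysate, where the groups overlapped (adjusted p = 0.216), while its other probe set was lower at -0.54. Without lysate replicate 1 the UBE2R2 change was -0.47 and passed (limma adjusted p = 0.0463), and averaged over its probe sets it was -0.40 and passed (adjusted p = 0.0352).

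The E2 enzymes of protein quality control at the endoplasmic reticulum did not pass on the probe sets that represent them. UBE2G2, a soluble enzyme that acts in this pathway, stood at 9.50 and 9.58 in the IP against 9.69 and 9.88 in the lysate, a change of -0.25 (95% interval -0.54 to 0.04, limma adjusted p = 0.113). Its further kept probe sets gave -1.24, which passed over probe sets, and -0.06. UBE2J1, anchored in the membrane of this compartment, stood at 7.97 and 7.99 in the IP against 8.18 and 8.17 in the lysate, a change of -0.19 (adjusted p = 0.167). Of its other 4 kept probe sets 3 were lower, at -0.99, -0.88 and -0.72. UBE2J2, also anchored there, leaned the other way, with 9.45 and 9.51 in the IP against 9.24 and 9.14 in the lysate, so 0.29 higher (95% interval 0.018 to 0.56, adjusted p = 0.0603), and none of its 4 probe sets passed. Averaged over their probe sets, UBE2G2 and UBE2J1 were called lower, at -0.52 and -0.62, and UBE2J2 was called higher with a stricter filter on low signal (adjusted p = 0.0413). The changes of UBE2J1 and UBE2J2 differed by -0.49 (exact permutation p = 0.333, the smallest possible).

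UBE2H, the E2 of the CTLH ligase complex, was 2.29-fold lower, at 7.96 and 7.86 in the IP against 9.11 on both lysate arrays (limma adjusted p = 8.4e-05). Of its 5 kept probe sets 4 were lower, and the remaining one changed by 0.04. UBE2Q1 and UBE2Q2 encode E2 enzymes with a long amino-terminal extension and did not move together. UBE2Q2 was lower, at 6.63 and 6.24 in the IP against 8.28 and 8.08 in the lysate, or -1.75 in log2 units (95% interval -2.12 to -1.37, adjusted p = 7.1e-05). UBE2Q1 stood at 9.42 and 9.49 in the IP against 9.58 and 9.67 in the lysate, a change of -0.17 (adjusted p = 0.245), while its other probe sets were higher at 0.76 and 0.50. With hybridization control centring the representing probe set of UBE2Q1 was called lower, at -0.67, and averaged over its probe sets the gene was called higher, at 0.36. The changes of UBE2Q1 and UBE2Q2 differed by 1.58, the widest gap among the 8 related pairs compared. In all 8 the difference on both IP arrays lay to 1 side of that on both lysate arrays, with an exact permutation p of 0.333 for each (0.333 after Benjamini-Hochberg adjustment over the 8). Such separation was common, since both IP arrays lay below both lysate arrays for 37.2% of all single genes and above them for 45.1%. The share over other gene pairs was not measured.

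No E2 enzyme for a ubiquitin-like modifier passed on the probe set representing it. UBE2F, which conjugates NEDD8, stood at 7.85 and 7.96 in the IP against 7.76 and 7.95 in the lysate, overlapping groups whose difference was 0.054 (95% interval -0.24 to 0.35, limma adjusted p = 0.724). Its other probe sets disagreed, at -0.84 and -0.44, both lower over probe sets, and at 0.26. UBE2L6, the E2 for ISG15, stood at 6.32 and 6.29 in the IP against 6.55 and 6.51 in the lysate, a difference of -0.22 (95% interval -0.49 to 0.04, adjusted p = 0.119). UBE2Z, which is charged by UBA6, differed by 0.10 (95% interval -0.17 to 0.36, adjusted p = 0.482), and its second kept probe set by -0.16. The interval of UBE2L6 includes a fall of the size seen in UBE2D4.

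**Figure D3:**
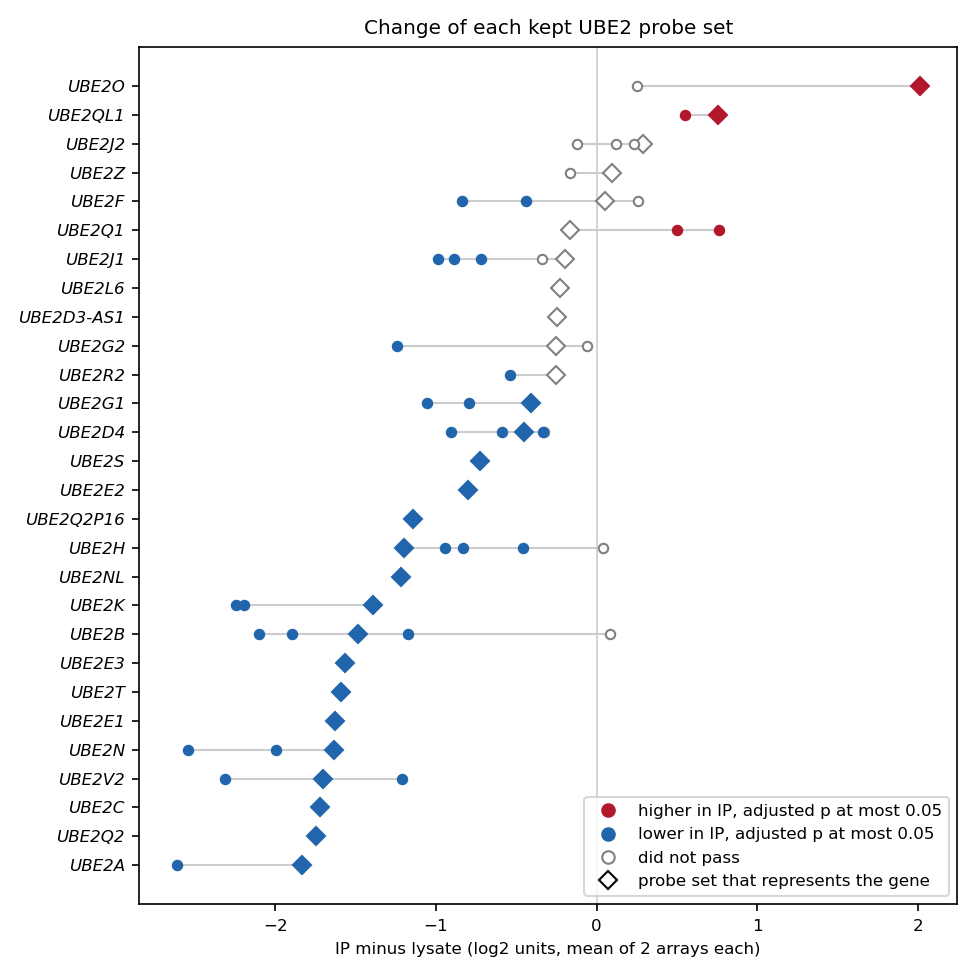
Change of each of the 67 kept UBE2 probe sets, IP minus lysate in log2 units, by gene. Diamonds are the probe sets that represent a gene, blue and red symbols passed the test over probe sets, and open symbols did not. UBE2O, UBE2F, UBE2Q1, UBE2J1 and UBE2G2 are among the genes that hold both called and uncalled probe sets, and no gene holds called probe sets in both directions.

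At the level of probe sets, 67 of the 81 members passed the filter. Of these 42 were lower, 5 were higher and 20 did not pass (limma over 27281 probe sets), beside 28.0% lower and 31.5% higher over all probe sets tested. The 5 higher probe sets belonged to UBE2O, UBE2QL1 and UBE2Q1. No gene had probe sets called in opposite directions, but the size often varied within a gene: the probe sets of UBE2K ranged from -2.24 to -1.39, those of UBE2N from -2.54 to -1.64 and those of UBE2J1 from -0.99 to -0.19. Which parts of a transcript each probe set covers was not analysed here. Of the 3 noncoding or pseudogene members that passed the filter, UBE2NL and UBE2Q2P16 were lower. UBE2Q2P16 stood at 5.09 and 4.30 in the IP against 5.80 and 5.87 in the lysate (adjusted p = 0.00341), on a probe set of a class that can cross-hybridize. The antisense RNA UBE2D3-AS1 changed by -0.24 (adjusted p = 0.0950). The 14 probe sets below the filter were not tested in the fit. They included all those of UBE2U, UBE2DNL, UBE2E2-DT and UBE2Q2P13, with means over the 4 arrays of 2.24 to 3.56. The others belonged to genes with kept probe sets. Among these, that of UBE2G2 stood at 3.38 and 3.42 in the IP against 5.05 and 5.39 in the lysate, a change of -1.82. That of UBE2Z changed by -1.03, and the rest, of UBE2B, UBE2E1, UBE2H and UBE2J1, by -0.71 to 0.35.

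These results were also set beside signal level and the difference between the IP arrays. The UBE2 genes were brighter than most, with a median of 9.22 over the 4 arrays against 7.70 for all genes tested. Among the 3290 genes with the highest mean signal 34.9% were lower and 40.8% higher, while of the 17 UBE2 genes among them 11 were lower and 2 higher. The median change of the 3290 genes was 0.084, beside 0.080 over all genes. Of the 15 UBE2 genes called lower, 11 had a lower signal on IP replicate 2 than on IP replicate 1, with a median difference of -0.23. The same held for 74.6% of all genes called lower and for 30.7% of all genes called higher. The part of these differences in the counts was not tested.

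The scale of the deposited values affects every change. The hybridization controls, bacterial transcripts of a kind added to such arrays in fixed amounts, lay 0.50 higher on the IP arrays. Centring each array on them moved the median change of all genes to -0.42 and the split over all genes to 1648 higher against 6017 lower, or 12.5% and 45.7%, in place of 4611 higher against 3790 lower. On that scale 1 UBE2 gene, UBE2O, was higher and 20 were lower, with a median of -1.22. The distance between the UBE2 median and the median of all genes is the same on both scales, since centring shifts all genes together.

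The other genes of the conjugation cascade had calls in both directions, where 28.8% of all genes were lower and 35.0% higher. Of 11 genes for ubiquitin and ubiquitin-like modifiers, 10 were lower, none was higher and NEDD8 did not pass, with a median change of -0.96. UFM1, a ubiquitin-like modifier, had the largest fall in this list, at 6.70 and 5.74 in the IP against 8.69 and 8.47 in the lysate, a change of -2.36 (limma adjusted p = 2.1e-04). The autophagy modifier gene MAP1LC3B fell by 1.75. Of 7 genes for E1 activating enzymes 3 rose and 1 fell, and the median was 0.23. The rises included UBA6, at 0.35 (limma adjusted p = 0.0459). Its other kept probe sets stood at -0.64 and -0.56, both called lower over probe sets, and at -0.09. Those of UBA1 and ATG7, which also rose, were called higher. UBA1, the main ubiquitin E1, stood at 12.53 and 12.55 in the IP against 11.45 and 11.80 in the lysate, a change of 0.92 (adjusted p = 8.9e-04), and ATG7, the E1 of autophagy, changed by 0.57. UBA3, the catalytic subunit of the NEDD8 E1, was lower at -1.42, with 7.84 and 7.74 in the IP against 9.27 and 9.16 in the lysate, while its partner subunit gene NAE1 changed by 0.23 and did not pass. Averaging the probe sets of each gene, the E1 median was -0.22, and with hybridization control centring it was -0.27 with no E1 gene higher.

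Of 8 E2 and E2-like genes that lack a UBE2 letter symbol, 2 were higher and 1 was lower, with a median of -0.10. BIRC6, another giant enzyme with both E2 and E3 activity, stood at 9.69 and 9.67 in the IP against 8.73 and 8.58 in the lysate, a change of 1.03 (limma adjusted p = 1.9e-04), with its other kept probe set at 1.06. Both IP arrays lay above both lysate arrays for BIRC6. CDC34 changed by 0.33 (adjusted p = 0.0441), whereas its second probe set stood at -0.17. Leaving out any 1 of the 4 arrays left 1 higher gene in this list. UEVLD, a catalytically inactive E2 variant, was lower, with 4.80 and 4.40 in the IP, near the array medians of 4.67 to 4.71, against 6.03 and 5.52 in the lysate.

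The ligase lists had members called in both directions, with shares to be read against the 35.0% of all genes that were higher and the 28.8% that were lower. The shares of the RBR list and of the last list, mostly RING and SUMO ligases, lay near those. Of 20 genes for cullins, RBX proteins, DCN1-like proteins and their adaptors, 8 rose and 10 fell, and the median was -0.15. The adaptor genes ELOB and ELOC, encoding elongin B and C, changed by -2.01 and -2.00. RBX1, the small RING subunit that brings the E2 to a cullin ligase, was lower as well at -1.95 (named after its value was seen). CAND2, encoding a cullin exchange factor, rose by 1.43, with 9.89 and 9.96 in the IP against 8.34 and 8.66 in the lysate. Of 13 genes for RBR ligases, which pass ubiquitin from an E2 through a cysteine of their own, 5 rose and 4 fell, and the median was -0.16. RBCK1 and RNF19A changed by -1.14 and -1.11. The other kept probe sets of RBCK1 stood at 0.42, called higher over probe sets, and at -0.07, which did not pass. CUL9, encoding a very large protein with cullin and RBR parts, rose by 2.07, with 7.76 on both IP arrays against 5.52 and 5.86 in the lysate. Its other kept probe set changed by -0.36 and was called lower over probe sets, the opposite direction. Averaging the probe sets of each gene, the RBR median was 0.12.

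Of 28 genes for ligases that work with the E2 enzymes above, mostly of the RING and SUMO classes but with the HECT ligase HERC5 among them, 8 rose and 9 fell; the median was -0.03, and it was 0.04 without lysate replicate 1 and 0.05 without IP replicate 2. ANAPC11, the RING subunit of the anaphase promoting complex that engages UBE2C, was lower at -1.68, with 9.71 and 9.60 in the IP against 11.30 and 11.37 in the lysate. The SUMO ligase gene PIAS1 changed by -1.22. HERC5, encoding the main ISG15 ligase and not of the RING class, had the largest rise of the list, at 11.03 and 10.97 in the IP against a mean of 8.93 ± 0.10 in the lysate (SD, n = 2), with no overlap and a change of 2.08 (limma adjusted p = 3.4e-05). Values of 3 further ligases set partners side by side and were named after they were seen: RNF20 and RNF40 changed by 1.06 and 0.61 and RAD18 by -0.71, where their E2 genes UBE2A and UBE2B changed by -1.83 and -1.48. With hybridization control centring this list had 4 higher and 15 lower genes.

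**Figure D4:**
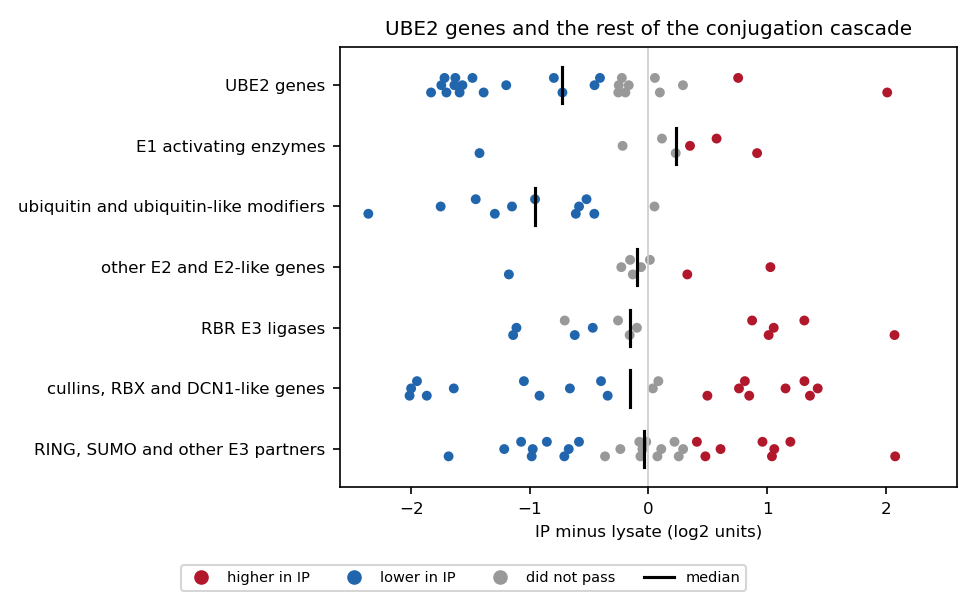
Change of each gene, IP minus lysate in log2 units, for the 25 protein-coding UBE2 genes and 6 lists of other conjugation genes. Each point is 1 gene, coloured by its call, and the black bar is the median of the list: -0.72 for UBE2 genes, -0.96 for modifiers and 0.23 for E1 enzymes, with the ligase lists between -0.16 and -0.03.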

How the data were processed

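RNA from 2 FMRP immunoprecipitates and 2 lysates was measured on Affymetrix Human Genome arrays, 1 per sample, per the labels' protocols. The authors deposited log2 probe set signals; the log2 scale is read from their range and array medians of 4.67 to 4.71. How background was corrected, probes were summarized and arrays were normalized is not given in the sources used here, nor are batches. The similar medians point to arrays scaled alike, which makes every change relative to the rest of the array. No detection calls were used, and low values have no known floor.

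The platform annotation gave 1 symbol to 41091 of the 54675 probe sets, several to 1801 and none to 11721, beside 62 controls. By Entrez number, 41037 were matched to the GRCh38.p14 gene table for current symbols and gene class. Probe sets with a mean of at least 4.70, the median of all, were kept. Each gene was represented by its kept probe set with the highest mean (13157 genes), and probe sets were also fitted singly (27281). The contrast of IP over lysate used lmFit and eBayes of limma 3.58.1 under R 4.3.3, without covariates. Residual degrees of freedom were 2 and prior ones 5.51 in the gene fit. Benjamini-Hochberg adjusted values of at most 0.05 passed, and the code was tested on simulated data. Related pairs were compared by exact two-sided permutation over samples. Figures used matplotlib 3.10.9.

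The members, lists and pairs were chosen with earlier results of these data known. Every member gene could be named; per-array values were given first for UBE2O, for the 6 largest called rises (of which 2 exist) and for the 6 largest called falls, and per list 2 called members in the direction of the median and 1 in the other. Other values were added by role. Listed genes without a kept single-symbol probe set are left out. A relation of the change to protein length was planned and not run, since no protein table was used. Alternatives covered normalization, filter, probe set choice, replicate block, variance estimate, threshold and leaving out each array.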

Additional observations from a re-analysis of the deposited data

How the results depend on the processing

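The call of UBE2O as higher, and the calls of UBE2A, UBE2C, UBE2E1, UBE2E3, UBE2H, UBE2K, UBE2N, UBE2Q2, UBE2T and UBE2V2 as lower, kept their direction and their side of the threshold under every alternative that gave them a value. The UBE2B change became 0.084 with plain _at probe sets, where 1 low probe set represents it. With the replicate number as a block 15 UBE2 genes were lower and 2 higher, as without it, and 41 UBE2 probe sets were lower; deviations of same-numbered IP and lysate arrays correlated at 0.10, and with 2 pairs the labels do not establish a pairing. Leaving out each array gave 13 to 15 lower and 2 higher UBE2 genes with a median of -0.76 to -0.67, 36 to 40 lower probe sets, and medians of 0.16 to 0.30 for E1 genes, -0.14 to -0.027 for other E2 genes (1 higher each time), -0.24 to -0.073 for RBR genes and -0.061 to 0.055 for RING, SUMO and other partner ligases. The UBE2 median was -0.65 with quantile normalization, -0.59 with no filter and -0.63 with plain _at probe sets. With hybridization control centring 1 UBE2 gene and 1 UBE2 probe set were higher, the UBE2 median was -1.22, and over all genes 6017 were lower and 1648 higher. There the medians were -1.45 for modifiers, -0.27 for E1 genes (0 higher, 2 lower), -0.60 for other E2 genes (1 higher, 5 lower), -0.66 for RBR genes (8 lower), -0.65 for cullin genes (4 higher) and -0.53 for RING, SUMO and other partner ligases (4 higher, 15 lower). Requiring a 2-fold change left 1 higher UBE2 gene, 1683 lower and 1639 higher genes in all, and 25 lower and 1 higher UBE2 probe sets. With quantile normalization 1 other E2 gene was higher. Averaging the probe sets of each gene, the medians were -0.68 for modifiers, -0.22 for E1 genes and 0.12 for RBR genes, with 2 lower and 1 higher other E2 genes and 5 higher cullin genes. The pair differences were then -0.91 for UBE2A minus UBE2B, -0.76 for UBE2J1 minus UBE2J2 and 2.11 for UBE2Q1 minus UBE2Q2. With plain _at probe sets 19 UBE2 probe sets and 4 modifier genes were lower (fewer were tested), 0 other E2, 3 RBR and 5 cullin genes were higher, and the medians were -0.80 for modifiers, 0.35 for E1 genes, -0.36 for RBR genes, -0.34 for cullin genes and 0.045 for RING, SUMO and other partner ligases.

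Signs that turned were mostly of values that did not pass on either side. With control centring UBE2G2, UBE2J1, UBE2L6, UBE2Q1 and UBE2R2 were also called lower, at -0.75 to -0.67, and UBE2J2 was called higher with the intensity trend and robust estimation (adjusted p = 0.0311, limma). UBE2Q1 changed by 0.36 (adjusted p = 0.0204, limma) with the mean of its probe sets and by 0.76 (adjusted p = 0.00136) with plain _at probe sets. UBE2F changed by -0.44 with hybridization control centring, -0.24 with the mean of its probe sets, and, leaving out each array, from -0.039 without lysate replicate 1 to 0.15 without lysate replicate 2, with -0.00075 without IP replicate 2. UBE2Z changed by -0.40 and -0.033 with control centring and with the mean, and UBE2J2 by -0.21 with control centring. Single probe sets that turned with control centring stood at -0.24 for UBE2O and UBE2F, -0.46 for UBE2H, -0.42 for UBE2B, -0.27 and -0.37 for UBE2J2 and -0.00094 for UBE2Q1, and the UBE2B probe set also without IP replicate 2, at -0.19. The cause of these differences was not tested. The number of arrays limits the precision, and signal over background is unknown.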
